A study of Mus musculus with 4 samples.

Results

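Intergenic m6A peaks were examined in mouse c-Kit+ haematopoietic cells. A peak was a member when its summit lay on an autosome, outside every gene body of GENCODE M21 (basic set), and not in the 5 kb that follow a protein-coding gene at its 3′ side. This held for 889 of the 15635 peaks of immunoprecipitation (IP) replicate 1 (5.69%) and for 790 of the 14872 peaks of replicate 2 (5.31%). The rule used position alone, so enrichment, sequence and recurrence were free to vary.

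Per the labels, all 4 samples were C57BL/6 foetal liver cells enriched for Kit on magnetic columns, 2 of them m6A IP and 2 input. The labels name total RNA for the IP libraries but polyA RNA for the input. The study's methods describe the cells as Ythdf2CTL, that is, Ythdf2 fl/fl, a floxed allele that makes a GFP-YTHDF2 fusion protein, and call the replicates biological. No deletion or treatment separates the samples, so the comparisons are between kinds of peaks. Library depth was not analysed here, and only the 2 IP peak lists were analysed. In both lists, 5 of 8 progenitor markers (Cd34, Gata2, Runx1, Tal1 and Gfi1b) had an exonic summit, against 3 of 8 erythroid, 2 of 8 hepatocyte and 2 of 8 macrophage markers. Kit itself and Myb had no exonic summit in either list. A peak list shows where IP reads were enriched, and an absent peak is not an absent transcript.

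m6A is placed on adenosines of RNA in short motifs, most often with a GGAC core, while the RNA is being made, and YTHDF2 is a reader that brings methylated RNA to decay. Genic m6A gathers in long internal exons and around stop codons. RNA also arises between annotated genes, from transcribed transposable elements, from processed gene copies that were inserted by reverse transcription, from antisense transcription that starts at promoters, and from genes that an annotation lacks.

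The sequences below show members that the results turn on, leaving out the repeats spread over many chromosomes. Family here means a set of members linked by near-identical matches, directly or through other members, and named by letter from the largest. They are GRCm38 (RefSeq assembly) on the plus strand, centred on the summit of replicate 1, with GGAC, or GTCC where GGAC is on the minus strand, in capitals. The first pair are from a repeated array on chromosome 6 and the next trio from just before the 5′ end of protein-coding genes. A further 4 are copies of coding transcripts, cut to 29 bases, and the last pair are little masked peaks without such a match.
Family G, between Ezh2 and Pdia4, chr6:47758732-47758792: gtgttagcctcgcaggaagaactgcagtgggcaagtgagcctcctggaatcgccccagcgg
Family H, the same array, chr6:47765015-47765075: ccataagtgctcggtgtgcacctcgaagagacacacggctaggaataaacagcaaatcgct
Before BC005537, chr13:24801298-24801358: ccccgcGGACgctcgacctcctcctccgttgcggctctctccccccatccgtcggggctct
Before Ppm1l, chr3:69316304-69316364: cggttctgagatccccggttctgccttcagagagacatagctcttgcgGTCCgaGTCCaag
Before Slc22a3, chr17:12507867-12507927: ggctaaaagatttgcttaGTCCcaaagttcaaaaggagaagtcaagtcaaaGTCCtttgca
Copy of 2410002F23Rik, chr3:138577516-138577544: tccttacgagttgggttgggccccaacat
Copy of Gtf2a1, chr12:82495353-82495381: ttcaaaccGTCCattttaactttttaagt
Copy of Tardbp, chr3:73001458-73001486: tccttttctcgctcatactagcctttcat
Copy of Jpt1, chr11:19861326-19861354: ctccctggaattgcaaggtgaagcacaca
Within the RefSeq lncRNA Gm30605, chr8:80313250-80313310: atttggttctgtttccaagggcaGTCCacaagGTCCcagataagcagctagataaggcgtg
Past the 3′ end of Syt10, chr15:89765960-89766020: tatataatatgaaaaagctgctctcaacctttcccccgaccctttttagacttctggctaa

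The first question was whether intergenic peaks recur, that is, overlap a peak of the other list by at least 1 bp. In replicate 1, 602 of 889 members recurred (67.7%, exact Clopper-Pearson 95% interval 64.5 to 70.8), against 80.6% of all peaks of that list. In replicate 2, 603 of 790 recurred (76.3%, 73.2 to 79.3), against 83.9% of all peaks. Most of these members met an intergenic peak, 575 in replicate 1 and 559 in replicate 2, while 20 and 27 met an exonic one. Members recurred less often than exonic peaks, by 16.6 percentage points in replicate 1 and 10.7 in replicate 2, and more often than intronic peaks, by 5.06 and 9.22 points. With 2 pairs of values, a two-sided exact paired permutation test cannot go below the p of 0.5 found here for each of these differences. The intervals cover counting error only.

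**Figure D1:**
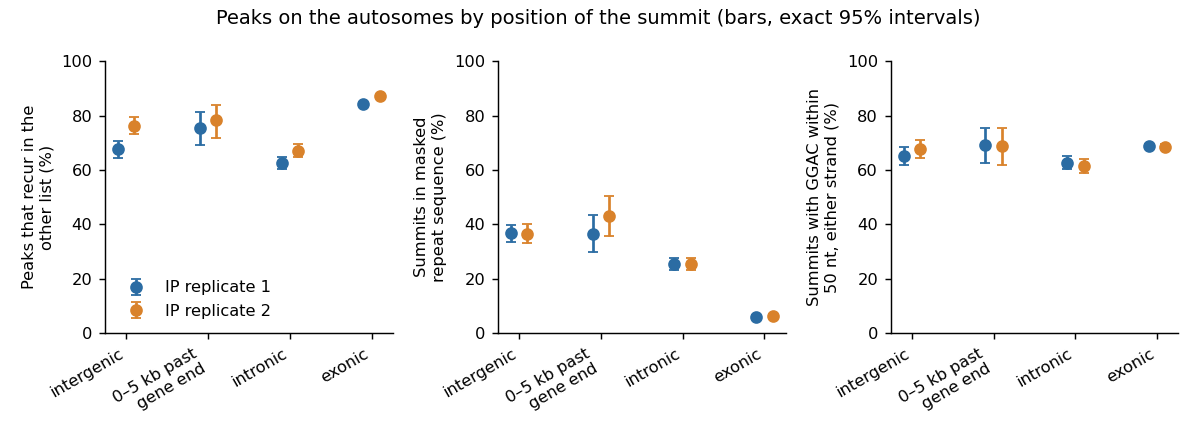
Share of peaks that recurred (left), had the summit base masked (middle) or had GGAC nearby (right), by position of the summit, for both IP lists; bars are exact 95% intervals. Intergenic peaks recurred at 67.7% and 76.3% and had GGAC nearby about as often as exonic peaks. Their summits were masked at 36.7% and 36.6%, against 6.13% and 6.45% in exons and 36.5% and 43.0% just past gene ends.

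Recurrence moved with the number of reads. The median member had 19.0 IP reads over its summit in replicate 1 and 22.0 in replicate 2, where the median exonic peak had 68.0 and 66.0. Members with under 15 IP reads recurred at 40.4% (134 of 332) in replicate 1 and 50.9% (114 of 224) in replicate 2. Exonic peaks of the same depth recurred at 40.7% and 50.1%. With 15 to 29 reads, members recurred at 75.9% and 78.9%, and exonic peaks at 73.6% and 69.1%. With 30 to 59 reads, members recurred at 91.2% and 91.8%, and exonic peaks at 86.1% and 84.5%. With 60 or more reads, members recurred at 89.9% and 98.7%, and exonic peaks at 91.9% and 96.6%. From 15 to 59 reads the share of members was thus the higher one in both lists, where over all reads it was the lower one. Intronic peaks with 30 to 59 reads recurred at 73.7% and 79.1%.

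Fold enrichment, the ratio of IP pileup to local background at the summit with 1 added to each, was higher between genes than in exons. Its median was 6.04 in replicate 1 and 6.68 in replicate 2 for members, and 4.18 and 4.39 for exonic peaks (differences of 1.87 and 2.29, exact paired permutation p = 0.5). The background under members was thin. Its median was 2 control reads in each list, against 17.0 and 13.0 in exons, and 15.3% of members of replicate 1 and 11.3% of replicate 2 stood on the smallest background of their list, against 2.38% and 1.77% of exonic peaks. Among members that did not recur the share on that smallest background was 33.8% and 30.5%, and among those that recurred 6.48% and 5.31%. The median −log10 q was 10 and 11.1 for members and lower than that of exonic peaks by 6.20 and 4.80.

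Of the recurrent members, 547 paired one to one between the lists. Their summits lay a median of 19.0 nt apart, and 393 pairs (71.8%) had summits within 50 nt. Across these pairs, which share genome position and are no independent replicates, Spearman's rho was 0.95 for IP reads and 0.506 for fold enrichment. Fold enrichment of a pair was within 2-fold in 91.0% of pairs, and the SD of its log2 difference was 0.575.

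Most members were not far from genes. The median distance from the summit to the nearest gene of any type was 3725 bp (replicate 1) or 3184 bp (replicate 2), and to the nearest protein-coding gene 13801 and 13960 bp. The distance depends on which members are kept: with the families described below left out, the mean of both medians was 1030 bp in place of 3454, without members in RefSeq genes 5475 bp, and without those within 1 kb before coding genes 6457 bp. In replicate 1, 328 members (36.9%) lay within 1 kb of a gene, 150 from 1 to 5 kb, 258 from 5 to 20 kb, 122 from 20 to 50 kb, 21 from 50 to 100 kb and 10 beyond 100 kb. Replicate 2 had 307, 129, 235, 94, 20 and 5 in the same bins. The nearest gene was protein-coding for 414 and 373 members, a processed pseudogene for 192 and 170, and a lincRNA for 105 and 96. The nearest coding gene lay with its 5′ end towards the summit for 68.6% and 69.5% of members, an order that the rule itself favours, since it removes summits close to 3′ ends. At that edge, 13 peaks of each list were removed at 4 to 5 kb past a 3′ end (median fold enrichment 5.28 and 5.32), and 16 and 15 were kept at 5 to 6 kb (6.56 and 5.73).

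Repeat masking of the GRCm38 sequence covered the summit base of 326 members in replicate 1 (36.7%, 33.5 to 39.9) and of 289 in replicate 2 (36.6%, 33.2 to 40.0), against 10.6% and 10.7% of all peaks. In exons the share was 6.13% and 6.45%, and in introns 25.4% and 25.3%. Peaks in the 5 kb past the 3′ end of coding genes, which the rule removes, had masked summits at 36.5% and 43.0%. A high masked share was thus not particular to members. Among members, the masked share changed with distance. Within 1 kb of a gene it was 12.2% and 14%, and from 5 to 20 kb it was 54.7% and 54.5%. The summit was masked in 35.5% and 34.5% of recurrent members and in 39.0% and 43.3% of the others. At the ends of the range, 112 and 100 members were masked over their whole length, and 211 and 188 had no masked base.

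**Figure D2:**
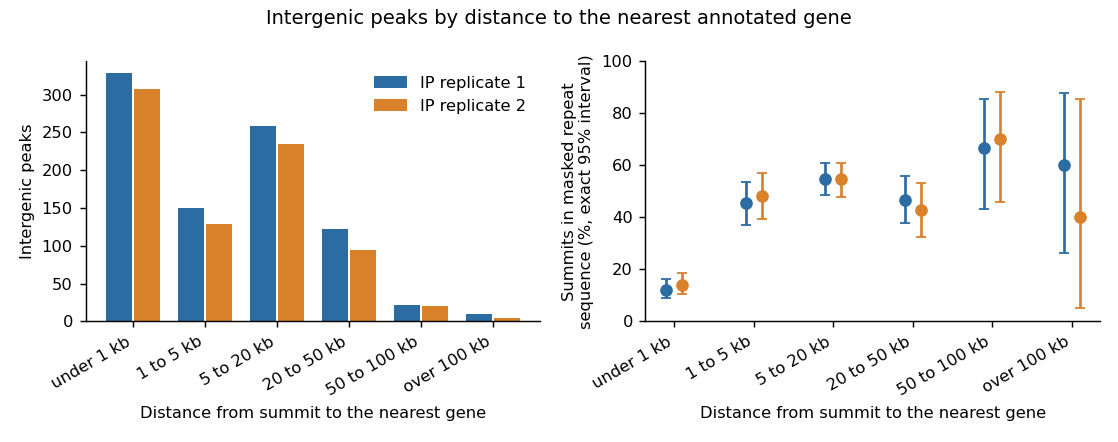
Number of intergenic peaks (left) and share with a masked summit base (right, exact 95% interval) by distance from the summit to the nearest gene. Within 1 kb there were 328 and 307 peaks with 12.2% and 14% masked, and from 5 to 20 kb 258 and 235 peaks with 54.7% and 54.5% masked.

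GGAC lay within 50 nt of the summit, on either strand, in 580 members of replicate 1 (65.2%, 62.0 to 68.4) and 535 of replicate 2 (67.7%, 64.3 to 71.0), against 67.8% and 67.6% of all peaks. Windows of the same length 1 kb away held it in 47.5% and 48.9%. The ratio of summit to flank was 1.37 and 1.39 for members, 1.51 and 1.48 for exonic peaks and 1.33 and 1.36 for intronic ones. GGACT gave 28.8% and 31.0% at the summit and 17.9% and 17.8% in the flanks. Per position, GGAC was 1.31 and 1.39 times as dense within 60 nt of member summits as at 390 to 500 nt, and 1.38 and 1.45 times with the repeated families described next left out. A match is a description of the letters, not a methylated site.

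**Figure D3:**
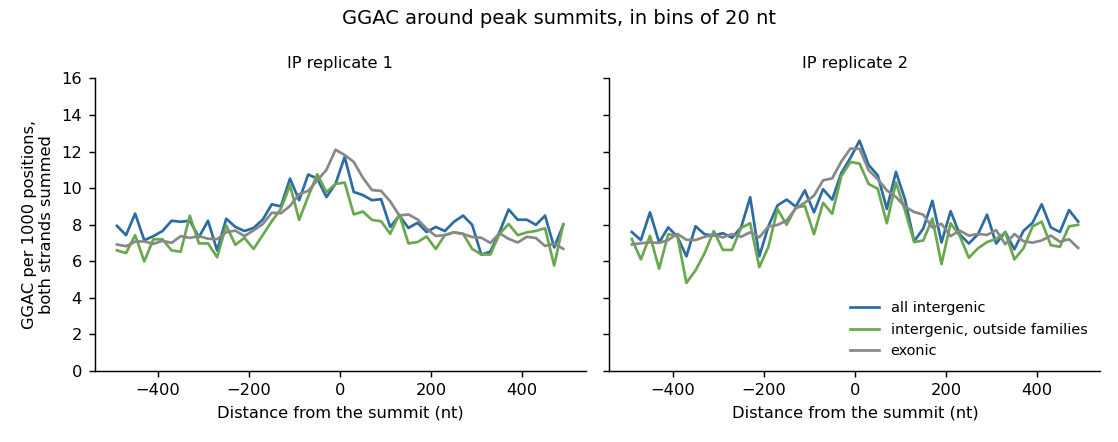
GGAC per 1000 positions on both strands, in 20-nt bins by distance from the summit, for all intergenic peaks, those outside families, and exonic peaks in each IP list. Density within 60 nt of the summit was 10.2 and 11.1 for intergenic peaks, falling to 7.80 and 7.98 at 390 to 500 nt.

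The members fell into 5 groups, set up after their values had been seen and described without a test. Sequences that match each other at 98% identity or more over 90% of a peak were linked into families, and a family of at least 3 places in the genome held 229 members of replicate 1 (25.8%) and 208 of replicate 2 (26.3%). Outside families, 83 and 77 members matched a coding transcript of a gene elsewhere at the same stringency. A further 183 and 179 lay within 1 kb before the 5′ end of a protein-coding gene. Of the rest, 170 and 153 lay in a RefSeq gene, and 224 and 173 in none.

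Depth and recurrence varied among these groups. Members that matched a coding transcript had the most IP reads, a median of 54.0 in each list, and recurred at 78.3% and 85.7%. Family members recurred at 79.9% and 86.5%, and those just before coding genes at 68.9% and 74.9%. The last group, the remaining members in no RefSeq gene, had the fewest reads, a median of 14 and 16. They recurred at 54.5% and 65.9% and stood on the smallest background in 23.7% and 22.0%. Masked summits ran from 63.3% and 62.5% in families to 4.37% and 6.70% just before coding genes.

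There were 16 families, formed from the members of both lists together. In the paragraphs that follow, a family's share, median or count of transcript matches given as a single value is over the peaks of both lists. A recurrent site counts in each list there. Since members can be linked through others, those of one family need not all be alike. The 61 bases around the summit with the highest −log10 q of a family in replicate 1 were compared with each member. The best match in or beside a member held a median of 56 in family A and 54 in D, and all 61 in B, C, E and F. These medians hide unlike members. At least 58 bases matched in 7 of 34 members compared in A, 28 of 33 in B, 22 of 30 in C and 11 of 27 in D. In E and F it was 21 of 21 and 21 of 22. The lowest match in C was 27 bases. The largest 6 were spread over many chromosomes, while the next 2 filled a single stretch of chromosome 6. Because the copies are nearly identical, a read can fit several of them, and how such reads were placed is not given in the sources used here. The count of peaks in a family is therefore not a count of methylated loci. In replicate 1, 352 members (39.6% of the list, 41.1% in replicate 2) had at least 1 further near-identical match in the genome.

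Families C, D and F were parts of one element. In the 11 copies of replicate 1 and 12 of replicate 2 with summits of all of them within 5 kb, the order was C, D, F (or its reverse) in every copy, over a median of 2835 and 2814 bp. Family F was the deepest of all families, with 18 to 150 IP reads, a median of 68.5 over both lists. It gave 5 of the 10 strongest one-to-one pairs, ranked by the lower −log10 q of the pair. At chr13:21818740-21819251, 6983 bp past the 3′ end of the histone gene Hist1h4m, family F reached 150 IP reads in replicate 1 and 140 in replicate 2, at fold enrichment 6.61 and 5.16. At chr10:50421730-50422093, 226 bp past the pseudogene Gm46223, it had 92 and 90 reads at 14.5 and 12.4. The copy at chr12:69553128-69553574 (116 and 121 reads, fold enrichment 6.65 and 8.30) lay in the RefSeq model Gm46353. Those at chr8:119891852-119892421, 15049 bp past Klhl36, and chr11:86888633-86889312, 47510 bp past Ypel2, had 90 and 118 reads in replicate 1 and 84 and 111 in replicate 2. At each of these copies the counts of both lists differed by 10 reads or fewer.

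Whole copies could be followed summit by summit, and 2 are given here, chosen after their values were seen. One lay 20670 bp from Trpm1 at its nearest summit in replicate 1 (chr7:64130003-64133331). Its summits in order, C, C, D and F, had 30, 40, 68 and 125 IP reads in replicate 1. In replicate 2 they had 29, 43, 66 and 114, so F stood highest in both lists. Of the 61 bases compared for family C, 29 matched at the first C summit of replicate 1 and all 61 at the next. In the one at chr4:101865515-101868219, D stood above F, with 52 against 47 reads in replicate 1 and 51 against 46 in replicate 2.

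RefSeq places gene models on some copies of this element, 14 of 31 in replicate 1 and 13 of 29 in replicate 2. Most are named as uncharacterized proteins, and Gm33887, under a family F summit, as an MLV-related proviral Env polyprotein-like gene. Family F summits were little masked (median 7.02% of bases) and those of C and D mostly masked (66.2% and 62.7%). GGAC lay near 88.1% of F summits, 88.9% of D and 73.3% of C, but the flanks of F and C were as rich in it (91.7% and 82.5%). Endogenous retroviruses are among the repeats whose RNA is known to carry m6A, and MLV-related proviruses are one class of them.

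Families B and E, with 35 and 25 loci, formed a further element. A summit of each lay within 5 kb in 18 copies of each list, and these copies spanned a median of 2156 and 2160 bp from first to last summit. B summits were masked over their whole length (median 100%) and E summits over 86.4%. GGAC was near 83.3% of B summits and 82.6% of E summits, against 61.7% and 43.5% of their flanks. The longer GGACT was near 82.6% of E summits and 0% of B summits. Members of both matched the annotated lincRNAs Gm42047 and Gm48362. Family A had the most loci, 40 on 16 chromosomes, but the fewest reads of these 6 (median 13.0), and recurred at 63.9% and 78.6%. It was masked over 98.1% of its bases and 13 of its summits matched the annotated lincRNA Gm26809.

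Families G and H made a tandem array on chromosome 6. It runs over chr6:47651599-47775729 in the gap between Ezh2, the Polycomb histone methyltransferase, and Pdia4, a protein disulfide isomerase of the endoplasmic reticulum, in a region that also holds the small Y RNA gene Rny3. Family G had 18 summits in replicate 1 and 17 in replicate 2, and all of them recurred. Over the 15 gaps of 2 to 10 kb between neighbouring G summits in each list, the median was 4331 bp, and 4350 bp in the second list. Shorter and longer gaps were left out. The summits formed a pair of blocks of 34567 and 34845 bp in replicate 1. Fold enrichment of G spanned 6.40 to 19.0 in the first list and 6.69 to 17.6 in the second, with medians of 11.6 and 11.4, against 6.04 and 6.68 for all members. The counts behind these values were small, 11 to 33 IP reads and 0.470 to 3 control reads in replicate 1, and 13 to 29 and 0.5 to 2 in replicate 2.

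The G window printed above was found without a change in 17 of the 18 members of replicate 1, and the remaining one shared 54 of 61 bases. The H window was the same in all 13. The array was GC-rich at G summits (median 66.3%) and little masked (11.5% of bases), and GGAC was near 82.9% of G summits, against 17.1% of their flanks. Family H had 13 and 8 summits, median fold enrichment of 6.40 and 6.90, and GGAC near 23.8% of summits, against 61.9% of their flanks. An H summit lay within 5 kb of 17 of the 18 G summits of replicate 1 and 14 of the 17 of replicate 2, the nearest at a median of 838 and 817 bp. RefSeq draws predicted genes over the array, among them Gm40369, Gm40367, Gm40365, Gm36327 and the lncRNA Gm52861, where GENCODE M21 has none at the summits.

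**Figure D4:**
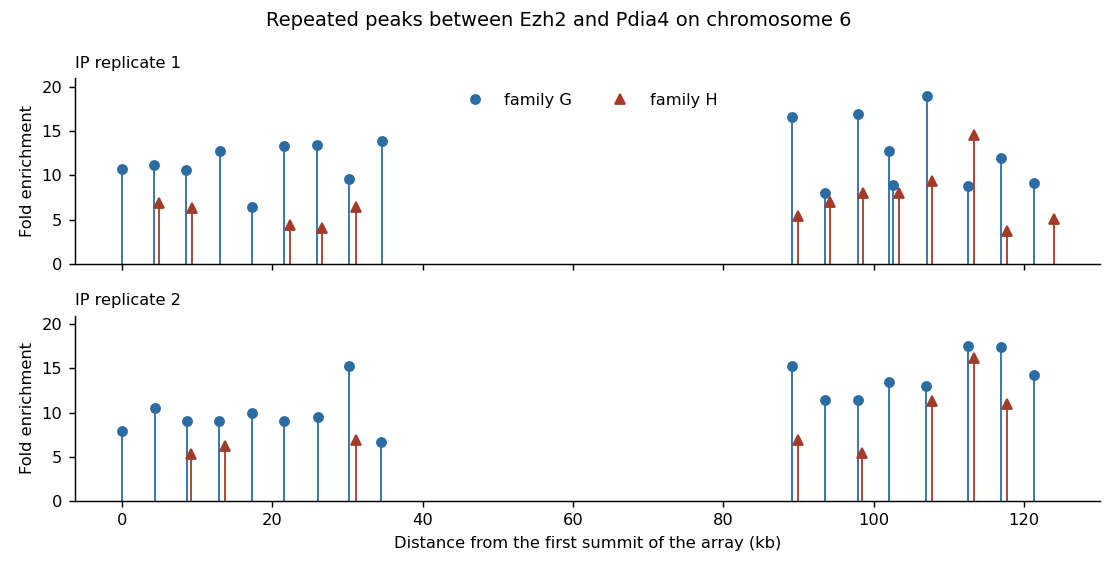
Fold enrichment of each family G (circles) and family H (triangles) summit against the distance from the first summit of the array, for both IP lists. G summits stand in 2 blocks, at a median gap of 4331 bp in replicate 1 over gaps of 2 to 10 kb. They reach 19.0 in replicate 1 and 17.6 in replicate 2, and H summits stand beside them at a median of 6.40 and 6.90.

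Families I and K lay on chromosome 2, K within chr2:176102142-177143787. K had 5 summits in each list, all recurrent, at fold enrichment 5.46 to 8.51 in replicate 1 and 6.69 to 8.19 in replicate 2, and 1 of them in each list lay in the RefSeq gene Gm14408. I had 6 and 5 summits, of which 3 in each list recurred. Both were masked over more than 90% of their bases at the median (93.7% for I and 96.3% for K).

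**Figure D5:**
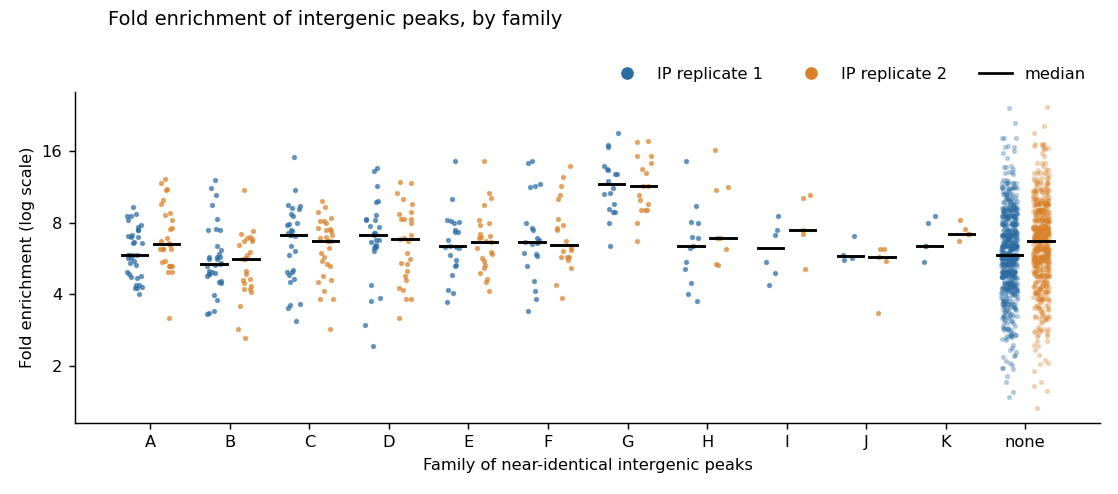
Fold enrichment (log scale) of intergenic peaks in the families A to K and in no family, each point a peak, with the median of each IP list as a line. Family G stands highest, with medians of 11.6 and 11.4, and families A to F have medians between 5.38 and 7.09.

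Summits were also counted as clusters, at least 3 of them linked by gaps of at most 5 kb with no gene start between. There were 38 clusters in replicate 1 and 40 in replicate 2, of which 31 in each list overlapped a cluster of the other. They held 151 summits (17.0% of members) and 157 (19.9%). The 2 blocks of the chromosome 6 array were the largest, with 18 and 14 summits in replicate 1 and 14 and 12 in replicate 2. The next were copies of the elements above, at chr12:69550532-69553725, chr1:83983320-83986369 and chr7:64130219-64133165, with 5, 4 and 4 summits in replicate 1 and 4, 5 and 5 in replicate 2. In 11 clusters of each list no summit belonged to a family. One of these lay in the RefSeq lncRNA A630034I12Rik between Ccne2, a cyclin of the G1 to S phase step, and Trp53inp1, a p53-induced gene, with 3 summits in each list, at fold enrichment of 2.28 to 5.27 in replicate 1 and 3.28 to 5 in replicate 2. Another lay 33716 bp (replicate 1) and 33786 bp (replicate 2) from its nearest gene, the chemokine receptor gene Ccr1. It had 3 summits in each list, all recurrent, of which 2 lay in the RefSeq lncRNA Gm51701.

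Members that matched coding transcripts, the second group, lay mostly beside annotated pseudogenes. A match need not make a member a copy of the gene named: Olfr624 was matched on chromosomes 1, 2 and 9. The nearest gene was a pseudogene for 70 of the 83 members of replicate 1 and 65 of the 77 of replicate 2, within 1 kb for 58 and 55. They matched transcripts of 76 coding genes in replicate 1 and 69 in replicate 2. The copy of 2410002F23Rik at chr3:138577411-138577689, 2257 bp from the pseudogene Gm43726, had 107 and 100 IP reads and fold enrichment of 11.1 and 10.7. The copy of Gtf2a1, a subunit of the general transcription factor TFIIA, lay 21 bp past the pseudogene Gm5435 at chr12:82495075-82495532, with 113 and 108 reads and fold enrichment of 9.23 and 9.43.

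Some members with such a match stood far from any GENCODE gene. A match to Tardbp, which encodes the RNA-binding protein TDP-43, lay 33609 bp before Sis at chr3:73001326-73001546, with 75 and 73 IP reads and fold enrichment of 8.25 and 7.83. A match to Jpt1 lay 63035 bp before Spred2 at chr11:19861288-19861491, with 68 and 66 reads and 6.10 and 5.70. Wtap, a subunit of the m6A writer complex, was matched by 3 members in each list, and Cdv3 by 2 and 3. The 4 printed copies matched their transcripts at 98.2% to 99.6% identity, so reads of the parent mRNA and of the copy cannot be told apart by these lists. The most often matched were the predicted genes Gm10778 and Gm4767, by 4 members in each list. Background was also highest here, with a median of 12.2 and 11 control reads.

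Members just before coding genes were GC-rich (median 57.4% and 58.4% around the summit) and close to the start, at a median of 259 and 270 bp, with 56 and 53 within 100 bp. In RefSeq, 68 of the 183 of replicate 1 and 59 of the 179 of replicate 2 lay in the longer model of the same gene, and 24 and 23 in another gene. The coding gene itself had an exonic summit for 125 and 118 of them. With each gene represented by its first listed member, 175 and 169 coding genes counted as having a member this close, where this group holds 181 and 175 genes. Of those 175 and 169, 66.9% and 65.1% had an exonic summit, against 35.5% and 34.5% of all coding genes on the autosomes.

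GGAC was counted on each strand there. Over all 184 and 179 members within 1 kb before a coding gene, it lay within 50 nt on the strand opposite to the gene in 88 (47.8%, 40.4 to 55.3) and 94 (52.5%, 44.9 to 60), and on the gene's strand in 64 (34.8%, 27.9 to 42.1) and 64 (35.8%, 28.7 to 43.2). The flanks 1 kb away held 26.6% and 33% on the opposite strand and 25.5% and 28.5% on the gene's. The opposite strand was higher in both lists, which share most of these places. This was not particular to the start of genes. From 20 to 50 kb past the nearest coding gene, GGAC was near 46.4% and 50.6% of summits on the opposite strand and 25% and 27.3% on the gene's. Before a coding gene, the opposite strand was also higher in both lists at 1 to 5, 5 to 20 and 50 to 100 kb. Only at 20 to 50 kb before one was the order turned in both, at 33.8% and 40.6% against 39% and 45.3%. Beyond 100 kb the lists differed before a gene, and past one the gene's strand was higher in both. The peak lists carry no strand, so which strand the reads came from was not measured.

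The strongest of these lay 329 bp before BC005537 at chr13:24801136-24801521, with 161 and 170 IP reads, the most of the 10 strongest pairs, and fold enrichment of 5.77 and 5.81. Before Ppm1l, a protein phosphatase gene, a peak 780 bp wide at chr3:69315881-69316660 had a −log10 q of 72.7 and 52.6 and fold enrichment of 12.8 and 8.25. Before Slc22a3, an organic cation transporter gene, the peak at chr17:12507550-12508146 had 53 and 69 reads at 15.7 and 13.3, with summits 1 bp apart. The printed windows of Ppm1l and Slc22a3 hold GTCC at 2 places each, and that of BC005537 holds GGAC. The strong peak before Erp44 in replicate 2 (31 IP reads, fold enrichment 15.2), 1 bp from the gene, and that before 9530068E07Rik, 3 bp from it (18 reads, 12.9), had no partner in replicate 1.

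The 5 recurrent pairs farthest from a gene had 9 to 42 IP reads in replicate 1 and 10 to 40 in replicate 2. At chr10:47454957-47455450, 129444 bp from the pseudogene Gm9068, a family A peak had 12 and 10 IP reads and fold enrichment of 5.42 and 5.26. A pair of sites lay 115624 and 128793 bp past the lincRNA Gm45430, in the RefSeq lncRNA Gm30605. The nearer one, at chr8:80313191-80313467, had 26 and 30 reads and fold enrichment of 7.46 and 7.39, was 10.8% masked and matched nothing else in the genome. The farther one, at chr8:80326345-80326607, was 95.8% masked, with 9 and 16 reads. The remaining pair were at chr19:60375461-60375734 (28 and 32 reads, fold enrichment 4.08 and 5.24) and, in family B, at chr7:52329748-52330070 (42 and 40 reads, 4.85 and 4.34).

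A deep member could also lie in no gene of either annotation. The one at chr15:89765740-89766094, 16403 bp past Syt10, had no masked base, 90 and 98 IP reads and fold enrichment of 5.17 and 8.57, though 2 further near-identical matches exist in the genome. Members that did not recur could still be strong. In replicate 1 the highest fold enrichment among them was 12.1, at chr5:24772614-24772832 (family B), chr2:51942055-51942412 and chr17:65062724-65062967, each with 16 IP reads over the smallest background of 0.470. In replicate 2, besides the pair of promoter peaks above, chr1:171484652-171484905 had 35 reads and 12.3.

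Genes of blood formation had members nearby about as often as other coding genes. Of 30 regulators and receptors listed, 29 are on autosomes, and 2 (6.90%) had a member of both lists within 100 kb of the gene body, against 1439 of 20807 coding genes (6.92%). The 2 were Lmo2 and Myb. Lmo2, a bridging factor of the stem cell transcription complex, had a recurrent peak 72733 bp before its 5′ end in replicate 1 and 72816 bp in replicate 2, with 21 and 22 IP reads and fold enrichment of 8.01 and 7.31. A further member of replicate 1 lay nearer to Lmo2, at 46400 bp, with none that near in replicate 2. Myb, a transcription factor of progenitors, had a peak 449 and 531 bp before its 5′ end, with 39 and 37 reads. Its fold enrichment was lower, 2.17 and 4.02. Replicate 2 held 2 members within 100 kb of Myb, and the highest fold enrichment among them was 8.24. Gata2 had a member in replicate 1 alone (28070 bp away, fold enrichment 6.35), and Tal1 (68877 bp, 9.54) and Etv6 (383 bp, 4.31) in replicate 2 alone. None of the other listed genes on autosomes had one.

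RefSeq on the same build placed 388 members of replicate 1 (43.6%) and 355 of replicate 2 (44.9%) inside a gene, and 296 (33.3%) and 273 (34.6%) inside an exon. The genes were protein-coding for 154 and 144 members, lncRNA for 137 and 118, and pseudogenes for 97 and 93. With those members left out, the mean of the counts of both lists fell from 840 to 468, and with 5 kb around every gene left out, to 382. Among recurrent members 46.3% lay in a RefSeq gene in each list, and among the others 38% and 40.6%.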

How the data were processed

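m6A meRIP-seq peak lists of 2 IP libraries were analysed. Per the labels and the study's methods, the authors aligned reads with HISAT2 and called peaks in each replicate with MACS2 (version 2.1.1.20160309, nomodel) on mm10 (GRCm38). The control used, the threshold and the handling of reads that fit several places are not given in the sources used here. In the deposited lists, the score is the whole part of 10 times −log10 q, the fold enrichment is a ratio of pileup to local background at the summit, each with 1 added, which lowers it most at shallow summits, and the −log10 p and q values are the peak caller's. Positions and summit offsets were used as deposited. A list per replicate was kept for the classes of peaks, while families were formed from the members of both lists together. A share or median given as a single value for a family is over the peaks of both lists, unless replicate 1 is named. A recurrent site counts in each list there.

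Whole IP reads over each summit were recovered from the fold enrichment and −log10 p, which matched within 0.001 for 100% of peaks of each list. The background is in control read equivalents and has a floor, 0.470 in replicate 1 and 0.391 in replicate 2. Library totals were not used here.

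Summits were placed against GENCODE M21 (basic) and RefSeq, and masked bases, GGAC (both strands, within 50 nt, and in windows 1 kb away) and sequences were read from the RefSeq GRCm38 assembly. Peaks were aligned to the genome and to transcripts with blastn 2.17.0, and 98% identity over 90% of a peak counted as a copy. Python 3.11.15, numpy 2.4.6, pandas 2.3.3, scipy 1.17.1, pysam 0.24.0 and matplotlib 3.10.9 were used, and the code was tested on simulated data. Shares have 95% intervals by the exact Clopper-Pearson method, for counting error alone. Classes of peaks were compared over the 2 libraries by two-sided exact paired permutation tests, for which 0.5 is the smallest p. The methods call the libraries biological replicates and the labels name no animals. With 2 libraries, this p depends only on whether both differences have the same sign, so it measures no spread.

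The members and lists were chosen with earlier results of these data known. Regions were named by rule: the 10 recurrent pairs with the largest lower −log10 q, the 5 farthest from a gene, the 5 recurrent clusters with most summits, the 3 members of each list with the highest fold enrichment that did not recur, the least masked recurrent pair in each distance bin, and listed blood genes with a member within 100 kb. Families, elements, groups, the clusters near Ccne2 and Ccr1 and the named transcript matches were chosen after their values were seen. Alternatives changed the gene ends removed, thresholds, the overlap, the motif, the annotation and the treatment of copies, and left out each replicate. Some listed genes are not reported here.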

Additional observations from a re-analysis of the deposited data

Results flagged for a closer look

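Intergenic summits on the sex chromosomes, which the comparisons above leave out, were counted apart and not tested against the members. There were 65 in replicate 1 (42 on X and 23 on Y) and 44 in replicate 2 (27 and 17). Of these, 36 (55.4%) and 37 (84.1%) recurred, against 67.7% and 76.3% of the autosomal members. The median fold enrichment was 5.56 and 5.99, against 6.04 and 6.68. A further near-identical copy in the genome existed for 50 and 34 of them, against 39.6% and 41.1% of the autosomal members. Reads can fit several such copies.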

How the results depend on the processing

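Values here are means of both replicates. In 28 cases an alternative moved a value by more than the spread between replicates (counts by 1.5 times or more). A single replicate cannot do so, since the mean of 2 values always lies within that spread of each. The gene bodies of the comprehensive annotation kept the same 889 and 790 members as the basic ones, so this alternative was no separate check. With basic transcript spans as gene bodies the mean count was 964. The count of intergenic peaks, 840, became 382 with 5 kb around every gene removed and 468 without members in RefSeq genes. The recurrent share, 72.0%, became 63.4% at 50% reciprocal overlap, 59.9% for summits within 100 bp and 65.6% at a fold enrichment of 4 or more. The masked share, 36.6%, whose replicates were nearly equal, was 36.9% with gene ends removed to 10 kb, 52.5% with 5 kb around every gene removed, 37.3% with sex chromosomes, 36.2% and 36.3% at −log10 q of 3 and 5, 37.6% at fold enrichment of 4, 34.9% with basic transcript spans, and 35.1% when counted as peaks masked over 50% of bases or more. The median distance, 3454 bp, was 13079 bp with 5 kb around every gene removed, 4170 bp with sex chromosomes, 4182 bp at fold enrichment of 4, and 13880 bp to coding genes. GGAC, 66.5%, was 86.0% within 100 nt, and GGACT 29.9%. Alternatives chosen after seeing the data were leaving out RefSeq genes (masked 46.2%, distance 5475 bp), families (27.4%, 1030 bp, GGAC 64.1%, 11 clusters in place of 39.0), members within 1 kb before coding genes (45.2%, 6457 bp), basic transcript spans, and masked summits (29.7% with near-identical copies in place of 40.4%). The median fold enrichment, 6.36, was 6.21 to 6.70 over the alternatives that keep both lists. Each replicate alone gave counts of 790 to 889, recurrence of 67.7 to 76.3%, masking of 36.6 to 36.7% and distances of 3184 to 3725 bp. The cause of these shifts was not tested beyond the members each alternative removes. Peaks of under 15 IP reads limit what recurrence can show. No paired analysis was possible because a replicate block needs at least 2 groups of samples that share numbers, and the files used here are the 2 IP lists, one group. The paired tests in the report set kinds of peaks against each other within each list.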
